A study of Mus musculus with 15 samples.

Results

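The genes described here are 37 mouse genes of glycolysis and of the hypoxia response, read in epiblast-like cells while ERK signalling was switched on and then blocked. They comprised 25 genes of glycolysis (glucose and lactate transporters, the enzymes of the pathway, and the kinases that set its flux or the fate of pyruvate) and 12 genes of the hypoxia response (Hif1a and genes known as targets of its product). They were found in the deposited count table by Ensembl gene identifier and made up 37 of 52636 identifiers. All 37 passed the low-count filter that left 13451 genes for testing. Aldoa matched 2 identifiers: ENSMUSG00000030695 stands for it, and the other held between 0 and 8 counts per library.

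Glycolysis brings glucose in through facilitative transporters, phosphorylates it with hexokinase, commits it to breakdown with phosphofructokinase and splits it to pyruvate, which is reduced to lactate by lactate dehydrogenase or oxidised by the pyruvate dehydrogenase complex. The transcription factor HIF-1, a dimer of HIF-1α and ARNT, activates many genes of this pathway when oxygen is low, and in oxygen the EGLN prolyl hydroxylases mark HIF-1α for destruction. Pluripotent cells of the epiblast lean strongly on glycolysis.

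The cells were EpiLCs (cells made in culture that resemble the early post-implantation epiblast) of the mouse line CRAFR26, which carries a c-RAF kinase construct that 4-hydroxytamoxifen (4OHT) activates, and with it ERK. Every group had 48 h of EpiLC culture with bFGF (12 ng/ml), Activin A (20 ng/ml) and the tankyrase inhibitor XAV939 (1 µM), and every group, the start included, had 2 h of the FGF receptor inhibitor PD17 (250 nM). The 0h group (n = 3) had no 4OHT. The 2h and 4h groups (n = 4 each) were taken after 2 h and 4 h in 250 nM 4OHT. The rev group (n = 4) had 4OHT for 4 h, followed by a MEK inhibitor for 2 h. MEK lies directly above ERK. Libraries came from clone 4 (7 libraries, 1 of them at 0h) and clone 8 (8 libraries), so a clone difference compares these 2 targeted lines. The labels do not say whether the libraries of a clone came from separate cultures, so p-values measure the spread between these libraries, which may be technical. A group with 4OHT but no construct, and a group without PD17, were not analysed here, and in rev the inhibitor cannot be told apart from 2 further hours of culture.

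The 4h libraries stood apart from the others. They held 1552022 to 6658950 counts each, against 8667880 to 13004556 elsewhere. At 4h the 20 most abundant genes held 65.4% to 79.3% of the counts, overlapping the 51.1% to 73.3% of the other groups, and mitochondrially encoded genes held 7.21% to 12.4%, against 2.67% to 6.98% in the other groups. The 37 genes together held 5857 to 16089 counts per library at 4h and 23229 to 69038 elsewhere. Levels are CPM, that is counts brought to 1 library size, after TMM scaling, which sets the bulk of genes equal between libraries. CPM are therefore relative, and a change in the number of cells or in the RNA per cell cannot be read from them. When libraries were scaled by their total count instead, the median of all tested genes itself moved to -0.73 on the log2 scale in 4h vs 0h, -0.57 in 4h vs 2h and 0.45 in rev vs 4h. Markers of the labelled cell type were present in every group. The summed CPM of 9 EpiLC markers was 1620 to 1870 at 0h and 1040 to 1150 at 4h. Of these 9, 2 were higher and 5 lower in 4h vs 0h. The summed CPM of 8 naive pluripotency markers was 20.9 to 29.3 at 0h and 62.7 to 216 at 4h (7 of the 8 higher in 4h vs 0h). That of 5 neural markers was 23.6 to 31.5 at 0h and 51.3 to 71 at 4h. Of these 5, however, only 2 were higher in 4h vs 0h and 1 was lower, with a median log2 fold change of 0.10. Sums stayed at or below 13.5 CPM in every library for mesendoderm, primitive endoderm and trophoblast markers, and at or below 25.9 CPM for 6 fibroblast markers, of which Col1a2, Postn and Lum were at 0 at 4h. The part of these differences in the changes below was not tested. ERK output was seen in the labelled groups: of 9 ERK output genes, 7 were higher and 1 lower in 2h vs 0h. Their summed CPM was 109 to 141 at 0h, 721 to 1430 at 2h, 298 to 641 at 4h and 194 to 242 in rev. In 4h vs 0h, 7 were higher and 0 lower, while in 4h vs 2h, 2 were higher and 4 lower. In rev vs 0h, 5 were still higher and 1 lower.

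At the start the genes were expressed at very different levels. Per kilobase of exon, Pkm (pyruvate kinase, the last step) had the highest level of the 37 genes at 0h, 181.2 ± 8.94 CPM per kb (SD, n = 3). Aldoa (aldolase) and Gapdh (glyceraldehyde-3-phosphate dehydrogenase) followed at 126.9 ± 4.40 and 126.2 ± 12.8 CPM per kb, and did not differ beyond their spread. Ldha (lactate dehydrogenase A) stood at 109.4 ± 12.0, Eno1 (enolase) at 60.2 ± 6.21 and Tpi1 (triosephosphate isomerase) at 44.5 ± 7.81. Pgk1 (phosphoglycerate kinase) stood at 23.1 ± 3.71 and Pgam1 (phosphoglycerate mutase) at 14.4 ± 1.95, so the steps after the triose stage spanned a wide range. Slc2a1 (the glucose transporter GLUT1) had 17.2 ± 2.93 CPM per kb, Gpi1 (glucose-6-phosphate isomerase) 16.8 ± 0.908, Pfkl (liver-type phosphofructokinase) 15.9 ± 0.497 and Hk2 (hexokinase 2) 13.1 ± 1.17, and the first 3 of these lay within their spread of each other. Among the hypoxia genes, Ddit4 (REDD1, a brake on mTORC1) led with 24.9 ± 7.90 CPM per kb and Hif1a followed at 12.7 ± 1.78. The lowest of the 37 were Pfkfb4 (a kinase and phosphatase of fructose-2,6-bisphosphate) at 0.317 ± 0.0159 and Ankrd37 (an ankyrin repeat protein) at 0.259 ± 0.0503, and neither exceeded 4 CPM in any library of any group.

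After 2 h of 4OHT, Kdm3a was higher and Pdk1 lower, and no other of the 37 genes was called. A gene is called changed here when its adjusted p in edgeR's quasi-likelihood test was under 0.05; in 2h vs 0h this was the case for 6.45% of all tested genes (3.98% higher, 2.46% lower) and for 2 of the 37. CPM did not overlap between 2h and 0h for 3 of the 37 genes (Pfkm, Kdm3a and Bhlhe40), beside 19.1% of all tested genes. As shares of the 37, both counts lie below those of all genes. Bhlhe40 had 4.502 ± 0.68 CPM at 0h and 14.7 ± 6.69 CPM at 2h, from 8.63 to 9.21 CPM in clone 8 and 19.8 to 21.1 in clone 4, and was not called (1.29 ± 0.38, adjusted p = 0.0672). Kdm3a, a histone H3K9 demethylase gene induced by hypoxia, was at 33.3, 38.3 and 40.6 CPM at 0h (clone 4, then both libraries of clone 8) and at 64.9, 63.1, 56.5 and 52.2 CPM at 2h (both libraries of clone 4, then both of clone 8, an order kept below). The groups did not overlap, and the log2 fold change was 0.63 ± 0.10 (SE; adjusted p = 0.000453). Pdk1, a kinase that shuts the pyruvate dehydrogenase complex, was at 30.8, 49.3 and 49.3 CPM at 0h and at 22.0, 25.6, 33.9 and 35.5 CPM at 2h, lower within each clone, with a log2 fold change of -0.45 ± 0.12 (adjusted p = 0.0252). That call was lost when any of the 3 libraries at 0h, or the first clone 8 library at 2h, was left out (adjusted p up to 0.0897). The median log2 fold change was -0.10 over the 25 glycolysis genes and 0.13 over the 12 hypoxia genes, beside 0.01 over all tested genes. With no low-count filter, 4 glycolysis genes were called lower, and 3 hypoxia genes higher and 1 lower. When TMM factors left out mitochondrial genes and the 20 most abundant ones, 3 glycolysis genes were called lower, and the hypoxia calls were again 3 higher and 1 lower.

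At 4 h the pathway changed in both directions at once. Of the 25 glycolysis genes, 16 were called in 4h vs 0h, 9 higher and 7 lower, and of the 12 hypoxia genes 5 were called, each of them higher. Over all tested genes 39.4% were called, 20.5% higher and 18.9% lower, so genes outside these classes moved in large number too. Glucose transporters, the platelet-type phosphofructokinase Pfkp and the phosphofructokinase activator Pfkfb3 rose, while lactate dehydrogenase A and the muscle and liver phosphofructokinases fell. The median log2 fold change was 0.04 for glycolysis and 0.45 for hypoxia, beside 0.03 for all genes. CPM did not overlap between 4h and 0h for 19 of the 37 genes (13 higher, 6 lower), beside 36.3% of all tested genes. All 21 called genes had the same sign in clone 4 and in clone 8. These calls came from a fit of both clones on the same libraries, which favours genes that agree in sign, so the agreement is no separate support. With total-count scaling the split of calls was 4 higher and 12 lower for glycolysis, and 2 higher and 2 lower for hypoxia; the 6 called higher there were Slc2a1, Slc2a3, Pfkp, Pfkfb3, Egln3 and Bhlhe40. With no low-count filter the hypoxia calls were 5 higher and 1 lower.

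**Figure D1:**
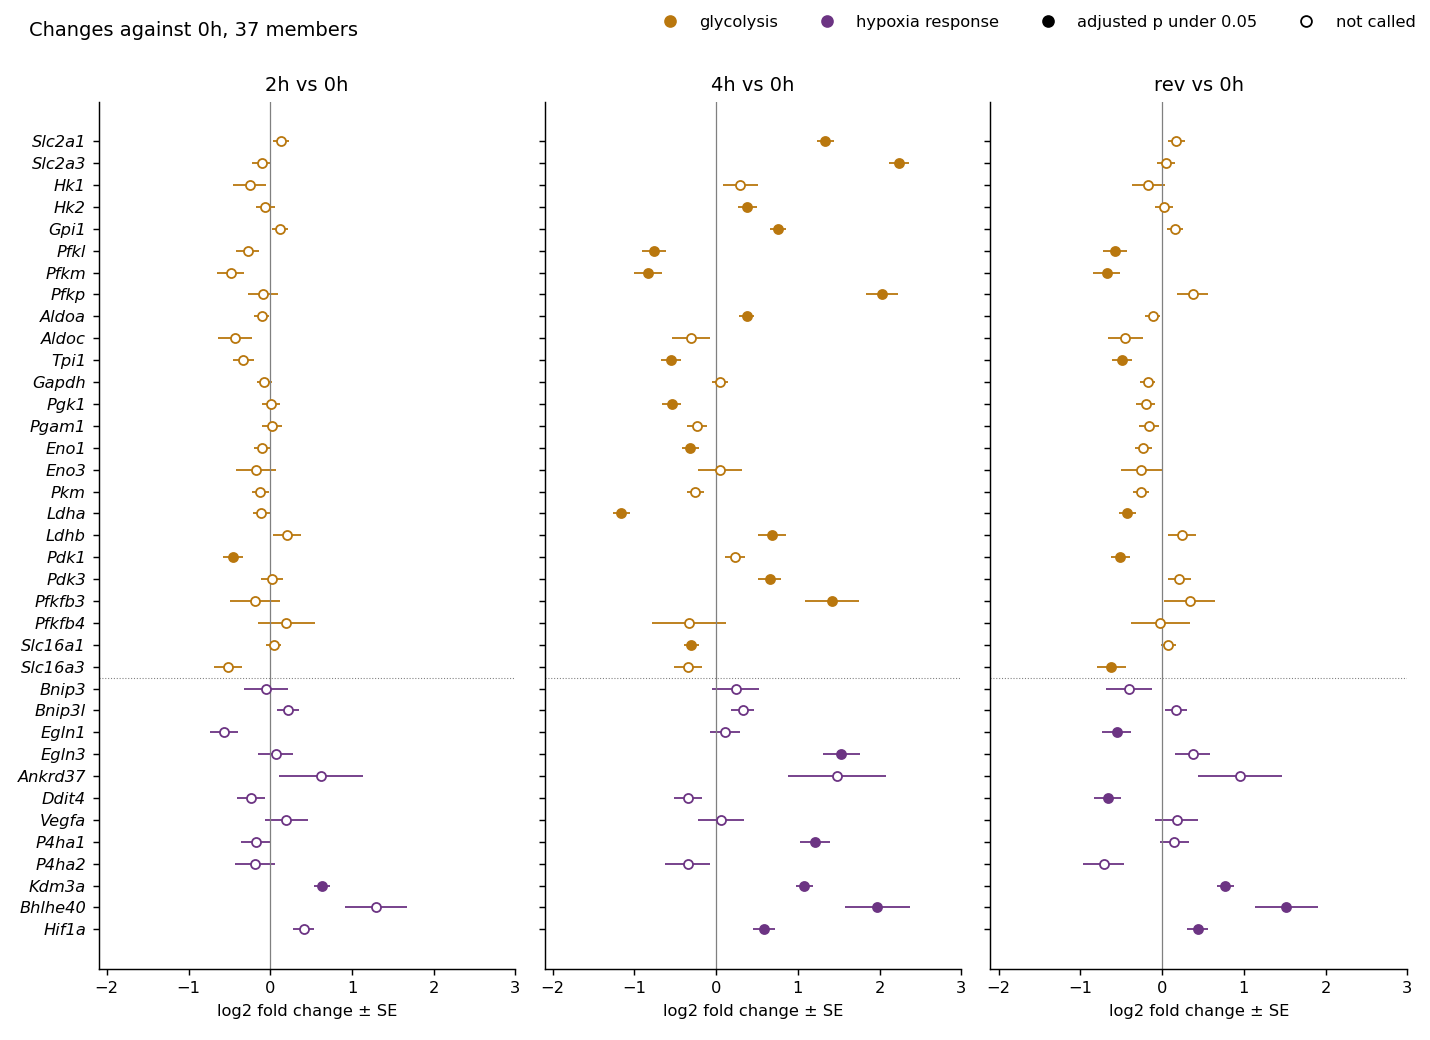
Log2 fold change against 0h with its standard error for each of the 37 genes (rows; glycolysis above the dotted line, hypoxia response below), at 2h, 4h and rev. Filled points passed an adjusted p under 0.05: 2 genes at 2h, 21 at 4h and 11 in rev; with total-count scaling the called genes Hk2, Aldoa, Ldhb, Pdk3 and Hif1a turn below 0 at 4h.

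Several of the genes that rose, and several of those that fell, are textbook targets of HIF-1, and the windows before their start sites are shown for 5 of them. HIF-1 recognises the cores ACGTG and GCGTG. The 250 bases before the RefSeq start (build GRCm38.p6) of Slc2a1, Pfkp and Egln3, which rose at 4h, and of Ldha and Pgk1, which fell, are given 5′ to 3′ on the strand of the gene; capitals mark each ACGTG or GCGTG on either strand (read as CACGT or CACGC when it lies on the other strand). The windows lie at chr4:119108495-119108744 (plus strand, Slc2a1), chr13:6648772-6649021 (minus, Pfkp), chr12:54203875-54204124 (minus, Egln3), chr7:46845554-46845803 (plus, Ldha, the one of its 2 windows with most matches) and chrX:106186850-106187099 (plus, Pgk1).
Slc2a1: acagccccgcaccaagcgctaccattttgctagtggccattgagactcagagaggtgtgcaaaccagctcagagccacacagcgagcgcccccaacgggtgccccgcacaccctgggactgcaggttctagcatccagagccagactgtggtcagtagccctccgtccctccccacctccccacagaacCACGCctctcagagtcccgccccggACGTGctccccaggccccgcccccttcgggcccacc
Pfkp: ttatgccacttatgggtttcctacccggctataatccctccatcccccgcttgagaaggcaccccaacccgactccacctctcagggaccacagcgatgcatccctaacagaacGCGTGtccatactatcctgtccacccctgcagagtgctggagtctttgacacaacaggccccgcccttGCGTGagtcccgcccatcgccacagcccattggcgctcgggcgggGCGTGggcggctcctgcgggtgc
Egln3: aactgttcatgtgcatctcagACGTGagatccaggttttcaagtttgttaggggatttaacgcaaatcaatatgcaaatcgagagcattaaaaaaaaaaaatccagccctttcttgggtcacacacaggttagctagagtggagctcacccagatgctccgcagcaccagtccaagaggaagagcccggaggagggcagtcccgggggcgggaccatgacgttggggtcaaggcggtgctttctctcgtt
Ldha: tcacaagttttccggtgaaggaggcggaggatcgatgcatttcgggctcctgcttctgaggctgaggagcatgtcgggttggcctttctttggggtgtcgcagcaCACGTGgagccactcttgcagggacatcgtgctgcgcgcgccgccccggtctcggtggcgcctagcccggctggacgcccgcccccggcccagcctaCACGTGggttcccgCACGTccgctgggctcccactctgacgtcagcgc
Pgk1: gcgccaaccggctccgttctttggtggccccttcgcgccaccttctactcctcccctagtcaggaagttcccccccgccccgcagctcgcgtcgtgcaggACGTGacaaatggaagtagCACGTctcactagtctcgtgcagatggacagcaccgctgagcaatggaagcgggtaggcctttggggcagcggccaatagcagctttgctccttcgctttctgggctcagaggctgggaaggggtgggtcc

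The Ldha window holds the palindrome CACGTG, the E-box read by MYC and by BHLHE40, at 2 places, and each of these also counts as ACGTG on both strands. The Pfkp window holds 3 matches, all of GCGTG, and the Egln3 window 1. Windows were found for 34 of the 37 genes, 50 windows in all. ACGTG was present in 48.0% of these, against 16.6% of the 32851 windows of all genes, and GCGTG in 58.0% against 28.2%. CACGTG was present in 12.0% of them against 6.0%, and TGANTCA, the site of AP-1, in 4.0% against 6.7%. The 37 genes were listed by pathway and as known HIF-1 targets, and the windows of all genes include genes not expressed here. These shares were therefore not tested as an excess. By gene, ACGTG was present in 8 of 12 genes called higher at 4h, 4 of 7 called lower and 9 of 15 not called. GCGTG was present in 7 of 12, 5 of 7 and 13 of 15 of the same genes. A match is a description of the letters, and how any factor bound there was not measured.

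Glucose uptake genes rose together at 4h. Slc2a1 (ENSMUSG00000028645, chr4:119108711-119137983 in GRCm38) was at 71.8, 51.8 and 57.5 CPM at 0h and at 181, 176, 119.5 and 156 CPM at 4h. Every 4h library lay above every library of the other 3 groups, and the log2 fold change from 0h was 1.34 ± 0.10 (a 2.53-fold rise; adjusted p = 3.15e-09). Slc2a3, the high-affinity transporter GLUT3 (ENSMUSG00000003153, chr6:122727809-122801640), was at 27.4, 47.0 and 46.2 CPM at 0h, and at 154, 140.5, 191 and 221 CPM at 4h. Its rise of 2.24 ± 0.12 (4.71-fold; adjusted p = 2.96e-11) was the largest of the 37. Both rises held under total-count scaling, at 0.64 and 1.54.

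Between uptake and the triose stage, the isozymes of 1 step moved apart. Pfkp (ENSMUSG00000021196, chr13:6579768-6648777) was at 15.1, 26.3 and 24.4 CPM at 0h, and at 90.4, 78.7, 81.5 and 102.5 CPM at 4h, with no overlap and a log2 fold change of 2.03 ± 0.19 (4.08-fold; adjusted p = 2.40e-07). Pfkm, the muscle-type enzyme, was at 24.9, 28.0 and 27.6 CPM at 0h and at 18.9, 10.1, 17.5 and 14.3 CPM at 4h. It fell by 0.83 (SE 0.17, adjusted p = 0.000655), also with no overlap. Pfkl fell by 0.76, from 102.5 to 109.1 CPM over the 0h libraries to 52.8 to 67.1 at 4h. Pfkfb3, whose product makes fructose-2,6-bisphosphate, the strongest activator of phosphofructokinase, was at 6.91, 5.88 and 6.54 CPM at 0h and at 43.4, 41.5, 6.15 and 11.7 CPM at 4h. Here the 4h libraries lay apart by clone: both clone 4 libraries were high, and 1 of the clone 8 libraries lay within the 0h range. The pooled log2 fold change was 1.42 ± 0.33 (adjusted p = 0.00296). It was 2.61 in clone 4, which has 1 library at 0h, and 0.49 ± 0.24 in clone 8 (adjusted p = 0.144). A clone difference against 0h was not tested, and the clone difference from 2h to 4h was not called for Pfkfb3. In a fit of the 0h and 4h libraries alone the pooled call was lost (adjusted p = 0.0892).

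Hk2, which traps glucose in the cell as its phosphate, was at 86.2, 73.3 and 75.1 CPM at 0h and at 125, 106, 88.1 and 102 CPM at 4h. The groups did not overlap, but the rise was small, 0.38 ± 0.11 (adjusted p = 0.0116), turned to -0.31 with total-count scaling, and lost its call without the clone 4 library at 0h, the second clone 8 library at 0h or the second clone 8 library at 4h (adjusted p up to 0.0641). Hk1 had 8.32 ± 0.639 CPM at 0h (SD, n = 3) and 10.1 ± 2.80 CPM at 4h (n = 4) and was not called (0.30 ± 0.21). Gpi1 rose by 0.76 ± 0.099 and Aldoa by 0.38 ± 0.091; both groups of libraries were apart for each gene, and with total-count scaling the values were 0.05 and -0.33. Aldoc, the brain-type aldolase, was not called.

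The lower pathway, from triose to pyruvate, did not follow. Tpi1 fell by 0.55, Pgk1 (phosphoglycerate kinase, the first step that yields ATP) by 0.54 and Eno1 by 0.31. Pgk1 was at 44.0, 60.6 and 50.9 CPM at 0h and at 31.2, 31.4, 42.8 and 33.9 CPM at 4h, below each 0h library. Gapdh, Pgam1 (phosphoglycerate mutase), Eno3 (muscle-type enolase) and Pkm were not called; Gapdh had a log2 fold change of 0.04 ± 0.097 and Pkm one of -0.25 ± 0.10 (adjusted p = 0.0532), although the Pkm libraries of 4h (741 to 779 CPM) all lay below those of 0h (880 to 958 CPM).

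At the fate of pyruvate the changes were again split. Ldha (ENSMUSG00000063229, chr7:46841475-46855627) was at 407, 349 and 331 CPM at 0h and at 161, 156, 155 and 185 CPM at 4h. It fell by 1.16 (SE 0.10; 2.24-fold lower; adjusted p = 1.82e-08), and every 4h library lay below every library of the other groups. Ldhb, the heart-type subunit, rose by 0.68 ± 0.17, or -0.11 with total-count scaling; its 4h libraries spread from 15.3 CPM in clone 4 to 59.2 CPM in clone 8, and overlapped 0h (19.9 to 26.3 CPM). Pdk1 was at 29.3, 37.3, 59.4 and 65.2 CPM at 4h and was not called against 0h (0.23 ± 0.12, adjusted p = 0.15), but Pdk3, a second kinase of the same complex, rose by 0.66 ± 0.14, from 11.1 to 11.6 CPM at 0h to 15.9 to 21.2 at 4h, or -0.09 with total-count scaling. Slc16a1 (MCT1, a lactate transporter) fell by 0.30, and Slc16a3 (MCT4, a lactate exporter) was not called (-0.35 ± 0.17).

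Of the hypoxia genes, those that rose at 4h encode the oxygen sensor Egln3, enzymes and regulators, and Hif1a itself. Egln3 (ENSMUSG00000035105, chr12:54178981-54203860), a HIF prolyl hydroxylase that is itself a HIF target, was at 4.32, 5.35 and 4.73 CPM at 0h and at 15.9, 11.9, 10.2 and 19.2 CPM at 4h, with no overlap and a log2 fold change of 1.53 ± 0.22 (2.89-fold; adjusted p = 1.70e-05). P4ha1, a collagen prolyl hydroxylase subunit, was at 5.94, 7.49 and 8.12 CPM at 0h and at 18.3, 18.3, 15.02 and 17.0 CPM at 4h, a rise of 1.21 ± 0.18 (adjusted p = 2.56e-05) that was 0.50 and not called with total-count scaling. Kdm3a reached 82.5, 84.2, 75.8 and 78.8 CPM at 4h, 1.08 ± 0.11 above 0h (adjusted p = 1.08e-07), and 0.38 and not called with total-count scaling.

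Bhlhe40 (DEC1, a repressor of the circadian clock) was at 3.73, 4.81 and 4.97 CPM at 0h and at 39.7, 46.9, 9.79 and 8.67 CPM at 4h. All 4h libraries were above 0h, those of clone 4 far more so, and the pooled log2 fold change was 1.97 ± 0.40 (adjusted p = 0.00199; 0.051 in a fit of the 2 groups alone). Hif1a (ENSMUSG00000021109, chr12:73901375-73947530) was at 62.8, 82.6 and 78.7 CPM at 0h and at 106, 114, 104 and 112 CPM at 4h, without overlap. Its rise of 0.58 ± 0.13 (adjusted p = 0.00128) turned to -0.13 with total-count scaling. The HIF-1α protein, the level at which oxygen acts, was not measured.

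Other classic hypoxia genes were not called at 4h. Vegfa, the angiogenic growth factor, had 12.1 ± 3.55 CPM at 0h and 12.1 ± 4.82 CPM at 4h (log2 fold change 0.06 ± 0.28, adjusted p = 0.891). Ddit4 was at 28.0, 54.4 and 48.5 CPM at 0h and at 27.5, 17.3, 41.7 and 37.3 CPM at 4h (-0.35 ± 0.17, adjusted p = 0.12). Bnip3, a mitophagy receptor gene, was at 4.00, 5.82 and 4.48 CPM at 0h. At 4h it was at 1.22 (which is 2 counts), 3.70, 7.74 and 8.67 CPM, lower in clone 4 than in clone 8. Its log2 fold change was 0.24 ± 0.29 (adjusted p = 0.549), and the clone difference from 2h to 4h was not called for Bnip3. Bnip3l, its paralog, Egln1, the main HIF prolyl hydroxylase, and P4ha2 were not called either, with log2 fold changes of 0.32, 0.11 and -0.35. Ankrd37 had 1 to 6 counts per library at 4h, and its log2 fold change of 1.48 ± 0.60 was not called (adjusted p = 0.0531).

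**Figure D2:**
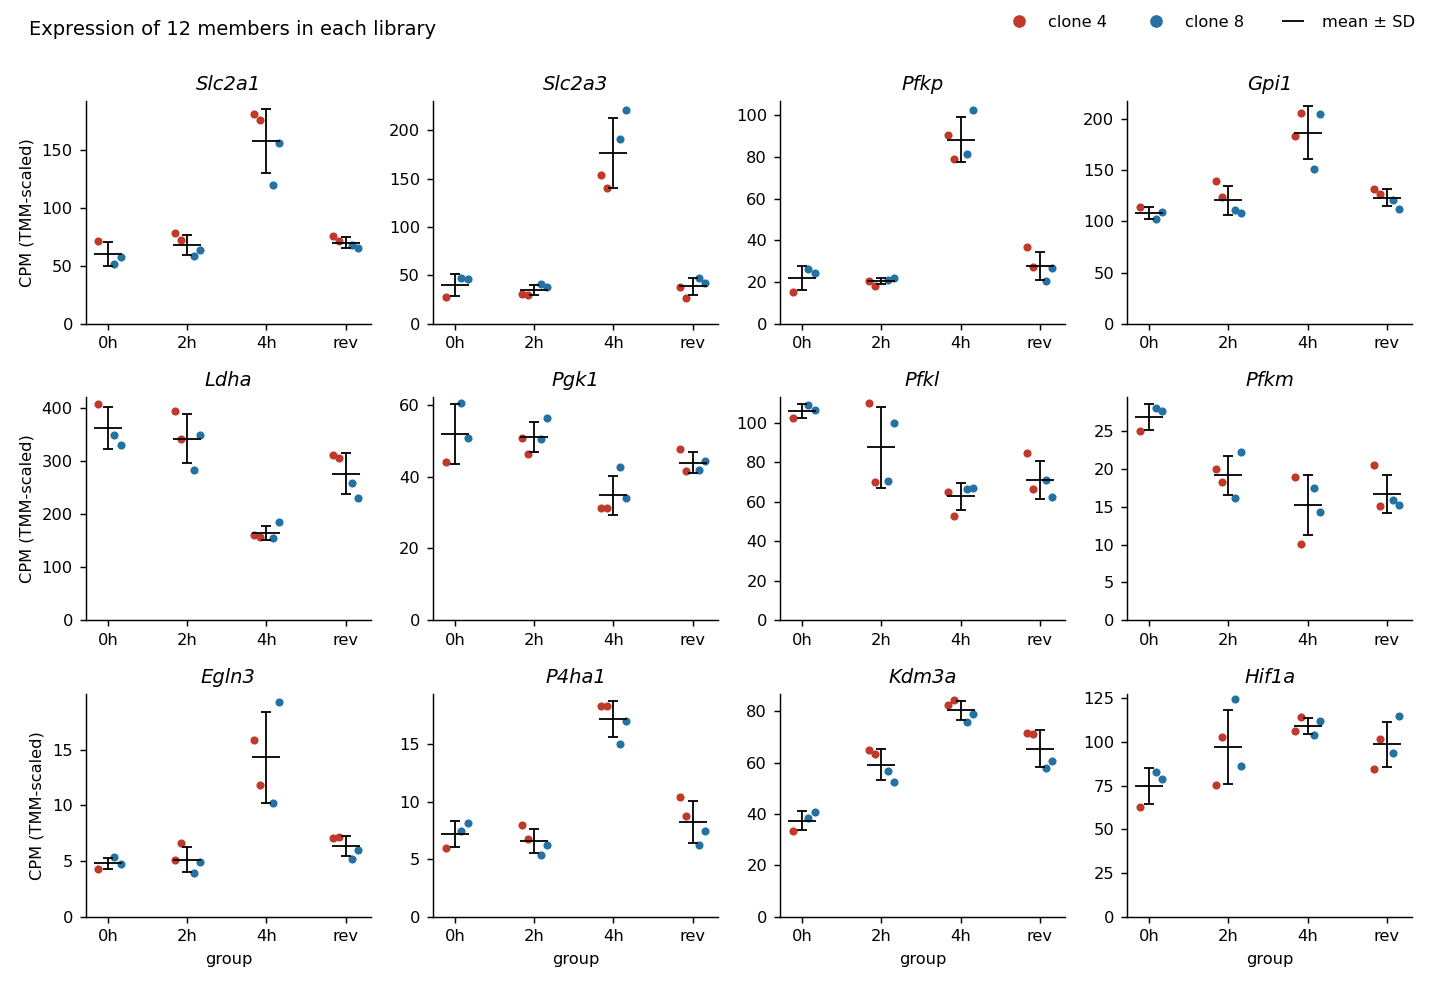
CPM of 12 of the genes in each library (points, red for clone 4 and blue for clone 8) with the mean and SD of each group (black), at 0h (n = 3), 2h, 4h and rev (n = 4 each). At 4h Slc2a1, Slc2a3, Pfkp, Egln3 and P4ha1 lie above every other library, Ldha lies below every other library, and rev lies near 0h or 2h for most.

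The balance of isozymes at a step was measured as shares of CPM per kilobase within a library, a ratio that scaling cannot move. Pfkp made up 6.35% ± 1.44 of phosphofructokinase RNA at 0h (SD, n = 3), 7.62% ± 1.25 at 2h, 32.2% ± 3.16 at 4h (28.6% to 34.9%) and 11.7% ± 1.77 in rev (n = 4 each). The 4h shares did not overlap those of any other group, and those of rev (9.02% to 12.8%) lay above those of 0h (4.71% to 7.36%). Pfkl made up 62.2% ± 1.67 at 0h and 45.9% ± 1.45 at 4h. Ldhb made up 12.4% ± 2.69 of lactate dehydrogenase RNA at 0h and 31.1% ± 11.9 at 4h, from 16.7% in the first clone 4 library to 44.6% in the first clone 8 library. Egln3 made up 29.5% ± 0.70 of the RNA of Egln1 and Egln3 together at 0h and 40.8% ± 10.8 at 2h (32.4% to 55.3%). It made up 53.6% ± 2.79 at 4h and 45.7% ± 3.31 in rev. Mean Egln1 was 15.5, 10.3, 16.5 and 10.2 CPM at 0h, 2h, 4h and rev. Mean Egln3 was 4.8, 5.1, 14.3 and 6.4 CPM, so the shares at 2h and in rev also hold a lower Egln1. Of the hexokinase pair, Hk2 held 93.1% ± 0.709 at 0h and 93.5% ± 2.28 at 4h, with overlapping ranges. These shares are descriptions and were not tested.

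**Figure D3:**
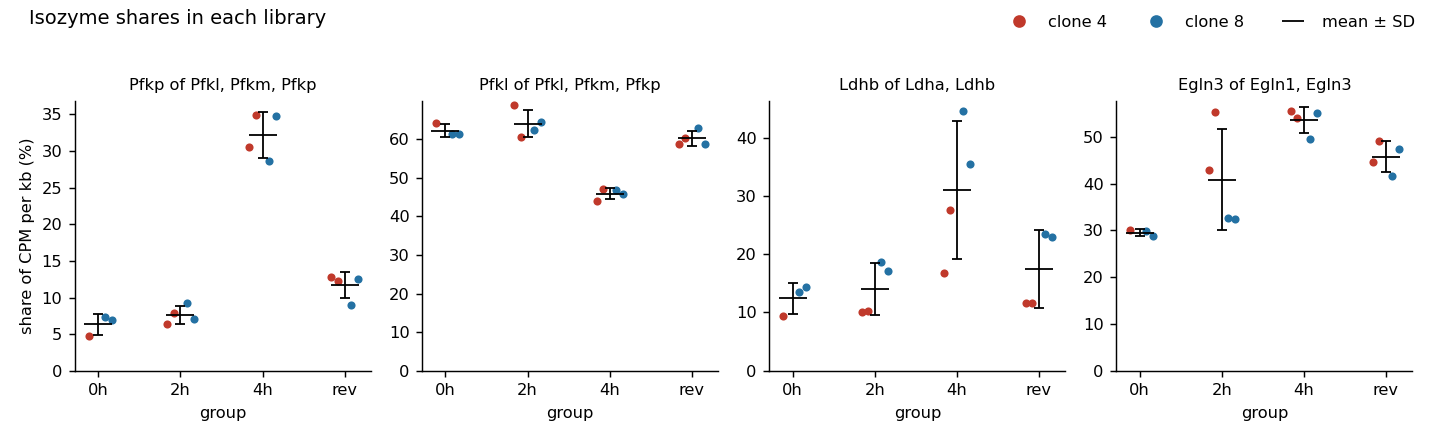
Share of 1 isozyme in the CPM per kilobase of its family (vertical axis, percent) in each library at 0h, 2h, 4h and rev, with the mean and SD. Pfkp takes 28.6% to 34.9% at 4h and at most 12.8% in any other library, while the Ldhb share at 4h is spread between clones.

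Between 2h and 4h the glucose transporters Slc2a1 and Slc2a3, Pfkp, and the hydroxylase genes Egln1, Egln3 and P4ha1 rose, and Ldha and the lactate transporter Slc16a1 fell. In 4h vs 2h, which shares its 4h libraries with 4h vs 0h, 15 of 25 glycolysis genes were called (11 higher, 4 lower) and 4 of 12 hypoxia genes, each higher, beside 38.9% of all genes (19.7% higher, 19.2% lower). CPM did not overlap for 13 of the 37 genes, beside 26.1% of all genes. Slc2a3 was at 30.9, 29.5, 40.8 and 37.6 CPM at 2h and rose by 2.34 ± 0.11 to 4h (5.06-fold; adjusted p = 1.88e-12). Pfkp was at 20.3, 18.3, 20.9 and 21.9 CPM at 2h, and rose by 2.11 ± 0.17 (adjusted p = 3.00e-08). Pfkfb3 rose by 1.61 ± 0.29 (adjusted p = 0.000403), Slc2a1 by 1.21 ± 0.092 (adjusted p = 2.37e-09), and Hk2 by 0.44 ± 0.11 (adjusted p = 0.00219). Pdk1, which had dipped at 2h, rose by 0.68 ± 0.11 (adjusted p = 7.76e-05), and Ldha fell by 1.05 (SE 0.095, adjusted p = 3.10e-08).

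Within the hypoxia class, Egln3 rose by 1.47 ± 0.20 (adjusted p = 8.07e-06), P4ha1 by 1.39 ± 0.17 (adjusted p = 1.39e-06), Egln1 by 0.68 ± 0.17 (adjusted p = 0.00348) and Kdm3a by 0.44 ± 0.094 (adjusted p = 0.000818). Hif1a had 97.2 ± 21.3 CPM at 2h and 109.1 ± 4.70 CPM at 4h and was not called (0.17 ± 0.12). The median log2 fold change was 0.17 for glycolysis and 0.37 for hypoxia, beside -0.01 for all genes. With total-count scaling the calls split into 4 higher and 10 lower for glycolysis and 2 higher and 1 lower for hypoxia, Kdm3a stood at -0.07 and Hk2 at -0.06. With no low-count filter 10 glycolysis genes were called higher and 9 lower.

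After 2 h of MEK inhibition most of these levels had moved back. In rev vs 4h, 13 of 25 glycolysis genes were called, 10 lower and 3 higher, and 4 of 12 hypoxia genes were called lower, beside 30.8% of all tested genes (15.6% lower, 15.1% higher). CPM did not overlap for 11 of the 37 genes, beside 22.8% of all genes. The comparison shares its 4h libraries with 4h vs 0h, so a library that reads high at 4h enters both, and the values of rev are given beside those of 0h. Slc2a3 was at 38.3, 26.8, 47.4 and 42.3 CPM in rev, with log2 fold changes of -2.19 ± 0.11 from 4h (adjusted p = 1.75e-11) and 0.05 ± 0.11 from 0h (adjusted p = 0.819). Slc2a1 was at 76.0, 71.0, 68.1 and 65.1 CPM, with log2 fold changes of -1.16 ± 0.092 from 4h (adjusted p = 8.87e-09) and 0.18 ± 0.099 from 0h (adjusted p = 0.264). Pfkp was at 36.9, 27.3, 20.4 and 26.6 CPM, with -1.66 ± 0.17 from 4h (adjusted p = 8.79e-07) and 0.37 ± 0.18 from 0h (adjusted p = 0.206).

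Ldha was at 310, 305, 259 and 230 CPM in rev, above every 4h library and below every 0h library. Its log2 fold change was 0.74 ± 0.095 from 4h (adjusted p = 4.95e-06) and -0.42 ± 0.10 from 0h (adjusted p = 0.00912), and the latter call was lost without the clone 4 library at 0h or the second clone 8 library of rev (adjusted p up to 0.0878). Pgk1 and Slc16a1 also rose from 4h to rev, by 0.34 ± 0.11 and 0.38 ± 0.084. Pfkfb3 fell by 1.08 (SE 0.29, adjusted p = 0.00933) and Pdk1 by 0.74 (SE 0.11, adjusted p = 4.90e-05). Hk2 fell by 0.36 (SE 0.11, adjusted p = 0.0132) a call lost without the second clone 4 library of rev (adjusted p = 0.0944), and stood at 0.01 with total-count scaling. Egln3 had 6.36 ± 0.917 CPM in rev and fell by 1.15 (SE 0.20, adjusted p = 0.000171), P4ha1 by 1.06 (SE 0.17, adjusted p = 5.06e-05) and Egln1 by 0.66 (SE 0.17, adjusted p = 0.00548). Kdm3a fell by 0.30 (SE 0.094, adjusted p = 0.0185), or stood at 0.10 with total-count scaling, and lost its call without either clone 8 library of rev (adjusted p up to 0.0565). With that scaling the calls became 3 higher and 3 lower for glycolysis, and edgeR called 0 hypoxia genes (2 at an unadjusted p under 0.05), against 4 with TMM and 5 with DESeq2's Wald test.

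Rev was not the same as the start for every gene. In rev vs 0h, 6 glycolysis genes were called, each lower, and 5 hypoxia genes, 3 higher and 2 lower, beside 11.2% of all genes (6.49% higher, 4.66% lower). CPM did not overlap for 11 of the 37 genes, beside 25.9% of all genes. The glycolysis genes were Pfkm (-0.68 ± 0.17, adjusted p = 0.0106), Slc16a3 (-0.62 ± 0.17, adjusted p = 0.0284), Pfkl (-0.58 ± 0.14, adjusted p = 0.0128), Pdk1 (-0.51 ± 0.12, adjusted p = 0.00886), Tpi1 (-0.49 ± 0.12, adjusted p = 0.0121) and Ldha. Pfkm and Pfkl had not returned: Pfkm was at 20.5, 15.1, 15.9 and 15.3 CPM in rev, all below 0h. Kdm3a stayed up at 71.6, 71.2, 57.8 and 60.6 CPM (0.78 ± 0.10, adjusted p = 4.41e-05), as did Bhlhe40 (1.52 ± 0.38, adjusted p = 0.0248) and Hif1a (0.44 ± 0.13, adjusted p = 0.0331). Ddit4 had gone below the start in each clone, at 18.2 and 11.8 CPM against 28.0 in clone 4 and 35.8 and 37.3 against 54.4 and 48.5 in clone 8 (-0.67 ± 0.17, adjusted p = 0.0137), and Egln1 stood at -0.55 ± 0.18 (adjusted p = 0.0483). Among these calls the one on Kdm3a held when any single library was left out (adjusted p up to 0.00149). Each other call was lost without at least 1 of the libraries, most often the clone 4 library at 0h or the second clone 8 library of rev. With total-count scaling 3 glycolysis genes were called, each lower, and of the hypoxia genes 1 was called higher and 1 lower.

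**Figure D4:**
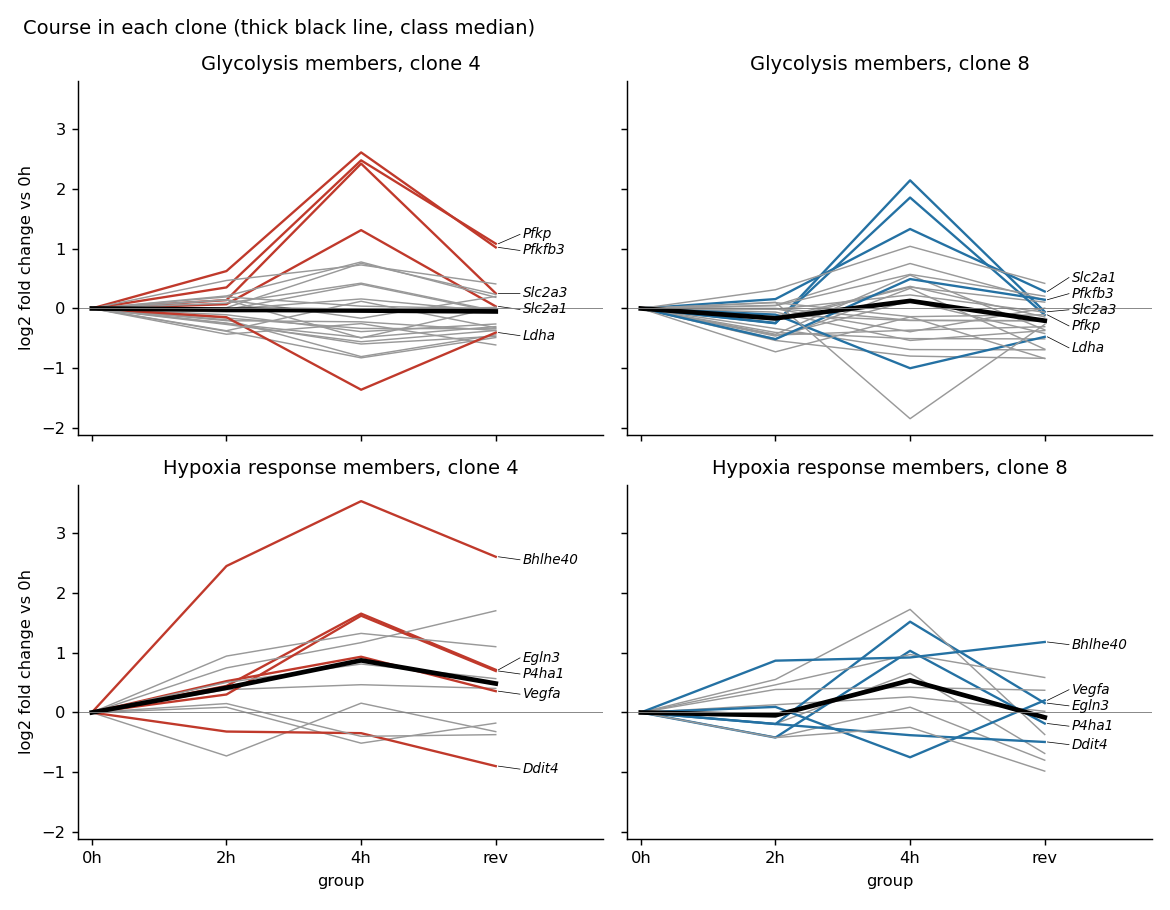
Log2 fold change against 0h at 2h, 4h and rev for the glycolysis genes (top) and the hypoxia response genes (bottom) in clone 4 (left) and clone 8 (right), 1 line per gene with 5 named in each panel and the class median in black. The glycolysis median stays near 0 while single genes rise or fall at 4h, and Vegfa and Bhlhe40 run differently in the clones; clone 4 has 1 library at 0h.

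Within each clone glycolysis genes changed in both directions at 4h, and most of the hypoxia calls were higher. The single 0h library of clone 4 was assumed to vary like the other libraries. In clone 4, 13 of 25 glycolysis genes were called in 4h vs 0h (6 higher, 7 lower) and 6 of 12 hypoxia genes were higher, beside 27.1% of all genes. In clone 8, 14 glycolysis genes were called (7 higher, 7 lower) and 5 hypoxia genes (4 higher, 1 lower), beside 26.5% of all genes. From 2h to 4h, clone 4 had 11 glycolysis calls (8 higher, 3 lower) and 5 hypoxia calls, each higher, beside 27.3% of all genes. Clone 8 had 16 (12 higher, 4 lower) and 5 (4 higher, 1 lower), beside 26.9%. From 4h to rev, clone 4 had 11 glycolysis calls (3 higher, 8 lower) and 3 hypoxia calls, each lower, beside 17% of all genes, and clone 8 had 11 (2 higher, 9 lower) and 7 (1 higher, 6 lower), beside 23.4%. In 2h vs 0h, clone 4 had 2 calls, both hypoxia genes and higher, and clone 8 had 3, beside 4.33% and 2.42% of all genes. In rev vs 0h, clone 4 had 5 calls and clone 8 had 8, beside 7.32% and 4.81%. In 4h vs 0h the hypoxia median was 0.87 in clone 4 and 0.54 in clone 8, and the glycolysis median -0.03 and 0.13. The summed CPM of the 25 glycolysis genes overlapped between 0h (3353.3 to 3442.3) and 4h (3234.5 to 3744.1), while that of the 12 hypoxia genes did not (181.6 to 248.1 at 0h, 309.1 to 350.5 at 4h). Most of that sum's difference lay in Hif1a (means of 74.7 and 109.1 CPM), Kdm3a (37.4 and 80.3) and Bhlhe40 (4.502 and 26.3), and Hif1a turned to -0.13 with total-count scaling.

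Over all groups, 13 of the 37 genes differed in level between the clones, beside 18.5% of all tested genes (10.4% higher in clone 8, 8.11% lower). Clone 8 was higher for Ddit4 (1.02 ± 0.12, adjusted p = 4.40e-06), Ldhb (0.84 ± 0.12, adjusted p = 3.13e-05), Pdk1 (0.60 ± 0.084, adjusted p = 2.86e-05), Gapdh, Slc2a3 and Tpi1. Clone 8 was lower for Pfkfb3 (-1.28 ± 0.22, adjusted p = 0.000599), Bhlhe40 (-1.17 ± 0.26, adjusted p = 0.00697), Eno3, Slc16a3, Slc2a1, Hk2 and Slc16a1. Under total-count scaling 4 of the 37 were called, 2 higher and 2 lower.

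For a minority of the genes the clones also differed in their response. The change from 2h to 4h differed for 3 of the 37 genes (8.11%), beside 3.14% of all genes. The change from 4h to rev differed for 4 (10.8%), beside 2.8%. As shares of the 37, both counts lie above those of all genes. Vegfa was at 13.4, 10.9, 13.4 and 16.1 CPM at 2h and at 15.3, 16.8, 9.79 and 6.41 CPM at 4h. From 2h to 4h its log2 fold change was 0.41 ± 0.21 in clone 4 and -0.84 ± 0.21 in clone 8, a difference of -1.25 ± 0.30 (adjusted p = 0.0231). From 4h to rev it was -0.58 ± 0.21 in clone 4 and 0.95 ± 0.21 in clone 8, a difference of 1.53 ± 0.30 (adjusted p = 0.00587) that held when any single library was left out (adjusted p up to 0.0406). Against 0h, Vegfa at 4h had a log2 fold change of 0.93 in clone 4, which has 1 library at 0h (8.42 CPM). In clone 8 the log2 fold change was -0.75 ± 0.21 (adjusted p = 0.0134), so the pooled value near 0 combines values of opposite sign. The clone difference against 0h was not tested.

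Bhlhe40 was at 21.1, 19.8, 8.63 and 9.21 CPM at 2h; it rose to 4h by 1.09 ± 0.18 in clone 4 and by 0.05 ± 0.19 in clone 8, a difference of -1.03 ± 0.27 (adjusted p = 0.0361), and the difference from 4h to rev was 1.19 ± 0.27 (adjusted p = 0.0167). Slc16a3 was at 80.9, 68.7, 40.5 and 48.2 CPM at 2h and at 67.2, 55.5, 57.8 and 75.4 CPM at 4h. It rose in clone 8 by 0.59 ± 0.15 and had -0.29 ± 0.16 in clone 4, a difference of 0.87 ± 0.22 (adjusted p = 0.0323), and the difference from 4h to rev was -0.89 ± 0.22 (adjusted p = 0.0337). Pfkfb3 dropped from 4h to rev by 1.59 in clone 4 (13.2 and 14.97 CPM in rev) and had -0.35 ± 0.25 in clone 8 (6.77 and 6.95 CPM), a difference of 1.25 ± 0.33 (adjusted p = 0.0495). Beside Vegfa from 4h to rev, each of these differences lost its call without 1 or another of the libraries (adjusted p up to 0.208), and with total-count scaling edgeR called 0 of the 37 genes from 2h to 4h and 0 from 4h to rev (4 and 4 at an unadjusted p under 0.05), against 3 and 4 with TMM.

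**Figure D5:**
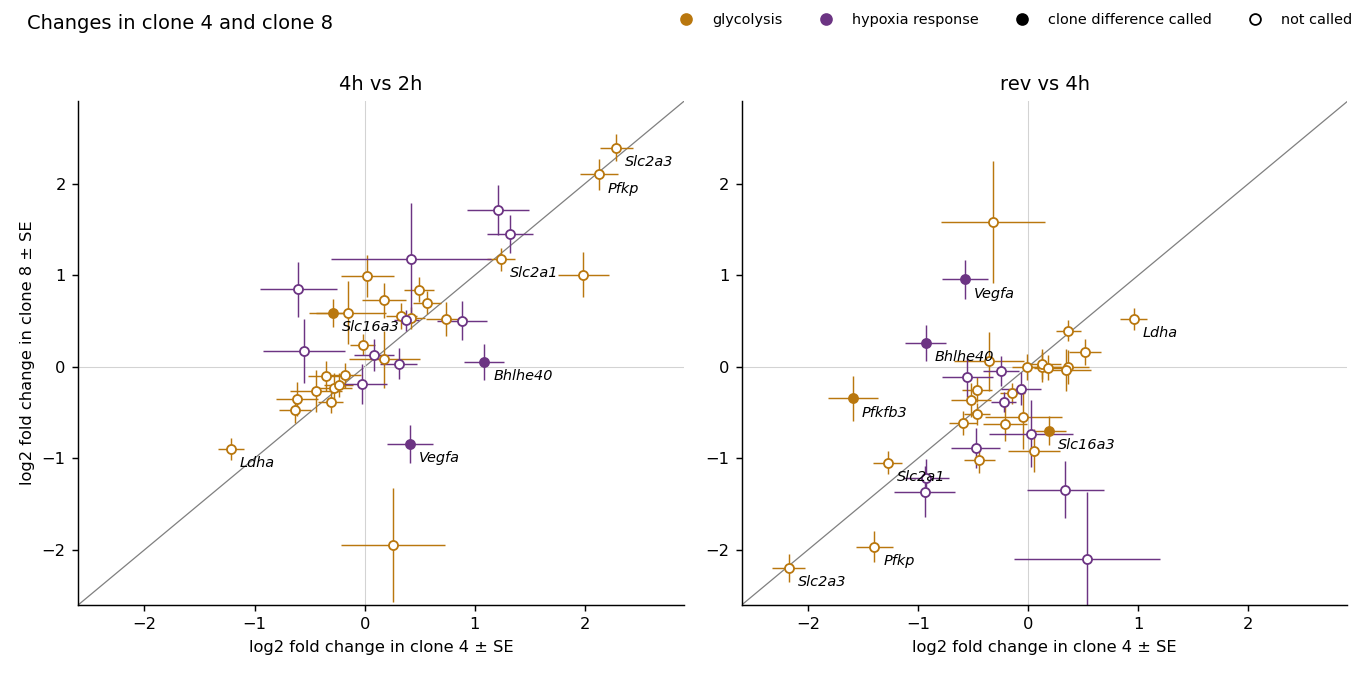
Log2 fold change with its SE in clone 4 (horizontal) and clone 8 (vertical) for each of the 37 genes, from 2h to 4h (left) and from 4h to rev (right), with the line of equal change. Filled points are the 3 and 4 genes whose change differed between the clones at an adjusted p under 0.05 with TMM scaling; Slc2a3, Slc2a1 and Ldha lie near the line in both panels.

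The neighbouring pathways were read from lists of other genes, beside the 39.4% of all tested genes called in 4h vs 0h and the 30.8% called in rev vs 4h. Of 15 further glycolytic isozymes and accessory enzymes tested, 1 was called in 4h vs 0h, Adpgk (ADP-dependent glucokinase; 0.36 ± 0.11, or -0.34 with total-count scaling, under which the list had 0 higher and 6 lower). Of 12 genes between pyruvate and acetyl-CoA, 3 were called and each was lower: Pdp2, the phosphatase that reactivates pyruvate dehydrogenase (-0.99 ± 0.14), Pdha1, the catalytic subunit of that complex (-0.53 ± 0.11), and Pdhx, its structural component (-0.45 ± 0.17); 9 were lower with total-count scaling. In rev vs 4h, 5 of these 12 were called, each higher (4 with total-count scaling), among them Pdk4 (1.08 ± 0.33), Pdp2 (0.64 ± 0.14) and Pdhx (0.52 ± 0.16). Pdk4 was near the floor, at 0.61 to 1.73 CPM at 4h and 1.86 to 4.37 CPM in rev. Of 9 pentose phosphate genes, 2 were lower, the oxidative enzymes Pgd (-0.64 ± 0.12) and G6pdx (-0.42 ± 0.13), and 1, Rpe of the non-oxidative branch, was higher (0.50 ± 0.15, or -0.25 with total-count scaling, under which 6 were lower).

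Of 17 regulators of the HIF pathway, 4 were higher and 2 lower in 4h vs 0h, beside 39.4% of all genes called (1 higher and 10 lower with total-count scaling). Epas1, which encodes HIF-2α, had 8.85 ± 6.28 CPM at 0h (SD, n = 3; 2.05 to 14.4) and 46.6 ± 18.3 CPM at 4h (n = 4; 28.7 to 64.5), a rise of 2.77 ± 0.27 (adjusted p = 7.81e-07) that was 2.12 with total-count scaling. Cited2, which competes with HIF for its coactivators, rose by 0.95 ± 0.18, Usp20 fell by 1.11 and Eloc, a part of the VHL ubiquitin ligase, fell by 0.64. Vhl itself and Arnt were not called (-0.36 ± 0.16 and 0.15 ± 0.12). Of 27 further HIF target genes tested, 11 were higher and 1 lower, beside 20.5% of all genes higher and 18.9% lower, with a median log2 fold change of 0.27; with total-count scaling 2 were higher and 6 lower, and 21 of the 27 lay above the median gene under both scalings. Among the genes called higher were Anxa2 (annexin A2; 1.92 ± 0.39), Mif (a cytokine; 0.78 ± 0.12, or 0.07 with total-count scaling) and Gys1 (muscle glycogen synthase; 0.77 ± 0.19, or 0.01 with total-count scaling). Anxa2 was low and spread widely, at 0.602 to 1.134 CPM at 0h and 1.131 to 6.912 CPM at 4h, so its groups overlapped.

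Some of these counts can hold reads of other genes. Of the 37 genes, 13 share exon positions with another annotated gene, and how strand was handled in counting is not given in the sources used here, so reads of a gene and of its antisense partner cannot be told apart. The shared part was 26.4% of the exon bases of Ankrd37, 22.3% of Bnip3, 11.5% of Gpi1, 10.7% of Pfkm, 8.1% of Hif1a, 5.6% of Pfkp and 3.0% of Slc2a1. Pkm shares 15.3% with a gene on the same strand, and Pfkm and Hif1a each share exon positions with a same-strand gene as well as an antisense one. Named pseudogenes are annotated for 6 of the 37 genes, at most 2 for each, among them Gapdh, Pgk1 and Ldha.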

How the data were processed

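RNA-seq counts of 15 libraries were analysed. The deposited values are whole-number read counts per Ensembl gene, without normalization. Reads were aligned to mm10 with STAR 2.5.3a after bcl2fastq 2.19.1, per the submitters' processing notes, and rRNA was depleted from 1 µg of RNA, per the labels' protocols. The counting tool, its annotation and its strand setting are not given in the sources used here. Gene names and positions came from GENCODE M21 (GRCm38, 52403 of 52636 identifiers matched), and promoter windows from RefSeq.

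Genes were filtered with filterByExpr (minimum count 10, total 15), scaled by TMM and tested with edgeR 4.0.16 (quasi-likelihood F test, R 4.3.3), with group and clone as terms and all libraries in 1 fit. Values within clones, and the differences between clones, came from a fit with 8 terms, 1 per combination of group and clone. P-values were adjusted by Benjamini-Hochberg over all 13451 genes, and the threshold was 0.05. The scripts were tested on simulated data. CPM per kb divides by the union of exons. Libraries of 1 group differed by a chi-square of 6.21 to 255 per degree of freedom, more than counting error alone; this does not tell separate cultures from repeat libraries of 1 RNA. Genes named with full statistics were the 6 called genes of largest change per class and comparison plus 10 fixed genes (Slc2a1, Hk2, Pfkp, Ldha, Pdk1, Hif1a, Egln3, Bnip3, Ddit4 and Vegfa), and others were added after their values were seen. The genes and lists were chosen with earlier results of these data known. Scaling, filter, model, tool (DESeq2 1.42.0) and each library were varied. Some results of the gene lists are not reported here.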

Additional observations from a re-analysis of the deposited data

Results flagged for a closer look

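In 4 of 111 combinations of gene and group with 4 libraries (3.6%), 1 library stood far from the other 3 for the size of the group's range; chance alone gives about 1 in 20. At 4h, Aldoa was at 427.3 CPM in the first clone 8 library, against 505.2 to 511.2 CPM in the others. P4ha2 at 4h was at 1.222 CPM in the first clone 4 library, which is 2 counts, against 3.87 to 4.147 CPM. Pfkl at 4h was at 52.82 CPM in the second clone 4 library, against 64.75 to 67.1 CPM. Pfkm in rev was at 20.46 CPM in the first clone 4 library, against 15.07 to 15.93 CPM.

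Responses that differed between clones by a test of the difference (edgeR, log2, clone 8 minus clone 4) were Slc16a3 (0.8749), Vegfa (-1.253) and Bhlhe40 (-1.033) from 2h to 4h, and Pfkfb3 (1.245), Slc16a3 (-0.8857), Vegfa (1.531) and Bhlhe40 (1.191) from 4h to rev.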

How the results depend on the processing

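With DESeq2's size factors in edgeR the 23 class counts, class medians and clone counts stayed within 1.5 times the reported count or within 1 SD of the reported median (17 glycolysis calls in place of 16 in 4h vs 0h, 9 higher and 8 lower), and the 81 single-gene results kept their direction and their side of the threshold. Total-count scaling changed most. In 2h vs 0h it called 0 glycolysis genes, and the glycolysis median was -0.287. In 4h vs 0h the glycolysis median became -0.731 and the hypoxia median -0.262. For 4h vs 2h they were -0.331 and -0.187, for rev vs 4h 0.14 and 0.03, and for rev vs 0h -0.506 and -0.114. Calls became 6 and 0 in rev vs 4h and 3 and 2 in rev vs 0h. The clone comparison had 4 calls, and the tests of clone differences in response had 0 and 0. Signs turned for Hif1a (-0.128) and Hk2 (-0.307) in 4h vs 0h, Kdm3a (-0.069) and Hk2 (-0.057) in 4h vs 2h, and Kdm3a (0.096) and Hk2 (0.01) in rev vs 4h. The cause was not tested.

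In 2h vs 0h the calls were 3 glycolysis and 4 hypoxia genes with TMM factors that left out mitochondrial genes and the 20 most abundant ones, 4 and 4 with no low-count filter, 2 and 4 with the legacy quasi-likelihood method (an alternative chosen after seeing the data), 3 and 3 with only the 2 groups, and 3 and 3 with DESeq2's Wald test. Without the clone term 0 glycolysis genes were called in 2h vs 0h, and 2 glycolysis and 1 hypoxia genes in rev vs 0h. With no low-count filter the glycolysis median in 4h vs 0h was -0.085.

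Leaving out 1 library at a time gave these lowest and highest values. In 2h vs 0h, 0 to 3 glycolysis and 1 to 3 hypoxia genes were called. In 4h vs 0h the glycolysis median ran from -0.099 to 0.023. For 4h vs 2h it ran from 0.081 to 0.315. In rev vs 0h, 0 to 6 glycolysis and 2 to 5 hypoxia genes were called, and the clone differences in response had 1 to 3 calls (2h to 4h) and 1 to 4 calls (4h to rev).

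The labels give replicate numbers within each clone. With a replicate block 3 hypoxia genes were called in rev vs 0h, where Egln1, Bhlhe40 and Slc16a3 lost their calls (adjusted p = 0.078, 0.0531 and 0.0567), and over all genes 1104 were called in place of 1500. Deviations of same-numbered libraries correlated at -0.194 to 0.261, which cannot settle whether some of them share more than a number. The limit throughout is the 4h group, with 5857 to 16089 counts over the 37 genes per library, and the single clone 4 library at 0h.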
